A study of Drosophila melanogaster with 8 samples.

Results

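The genes described here are 10 small protein-coding genes in a pair of clusters on chromosome arm 3L of Drosophila melanogaster, taken by gene name from tables of 15146 genes. The first cluster holds CG4962, CG4982, CG13051, CG13060, CG13063, CG13067 and CG13068, and the second _825-Oak_, CG12519 and CG18294. They were chosen by their embryo values: the authors' deposited table called each of them higher in embryos of high sugar fathers. Those values are therefore given as a description, with no test of their own. RNA was sequenced in whole stage 17 F1 embryos of w1118, a laboratory strain, whose fathers were fed medium sugar (30 g/L) or high sugar (300 g/L), and in sperm of adult w1118 males on the same foods. Each of the 4 groups holds 2 libraries of total RNA depleted of ribosomal RNA. The tables give a single FPKM per gene and group, a count of fragments divided by transcript length and library size, so no spread between libraries stands beside any value and the depth is unknown. The labels do not say if both libraries of a group were separate collections of animals, so the spread behind the authors' p-values may be technical.

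At stage 17, the last stage before hatching, the epidermis of the embryo completes the cuticle of the first larva. The cuticle is a layered coat of chitin, a sugar polymer, bound by many small secreted proteins. Genes for cuticle proteins are often short, lie in tandem arrays and are split by a short intron near the start of the coding sequence. The members carry annotation numbers or, for _825-Oak_, a clone-style name, and the sources used here give no function for any of them. The first cluster lies close to retinin, the gene of a protein of the corneal lens, which is itself a cuticular structure.

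In embryos of medium sugar fathers 9 of the 10 members were listed at 0 FPKM, and all 10 were above 1 FPKM in embryos of high sugar fathers. The sole member seen in both groups was CG13063, at 3.58 and 50.5 FPKM, a ratio of 14.1. It was also the most abundant member by a wide margin. The other 9 reached 1.09 to 6.48 FPKM in the high sugar group, with a median of 2.26 FPKM, below the median of 9.15 FPKM over all tested genes. In the first cluster CG13060 reached 6.48 FPKM, CG13067 5.31 FPKM and CG13051 3.51 FPKM. CG4982, CG13068 and CG4962 were lower, at 1.94, 1.80 and 1.09 FPKM. In the second cluster the levels were close to each other, at 3.31 FPKM for _825-Oak_, 2.26 FPKM for CG12519 and 2.15 FPKM for CG18294. With a single value per group, the order of neighbouring levels cannot be told from error. Whole embryos do not separate fewer cells of a type from less RNA per cell.

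**Figure D1:**
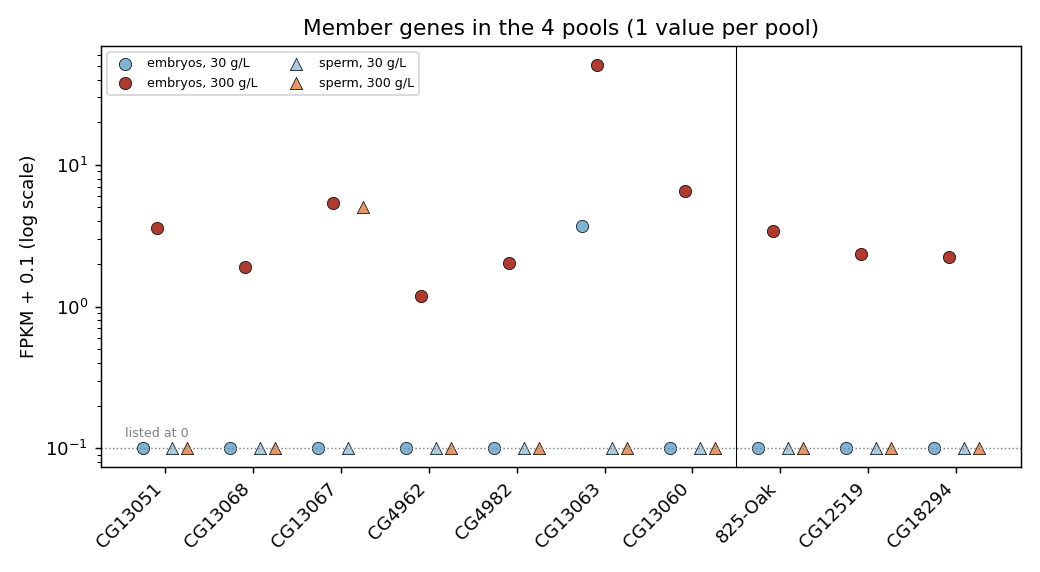
FPKM plus 0.1, on a log axis, of each member in the 4 pools, with 1 value per pool, circles for embryos and triangles for sperm, and the first cluster left of the vertical line. Apart from CG13063, every member sat at the listed 0 in medium sugar embryos and above 1 FPKM in high sugar embryos, and CG13067 was the only member above 0 in a sperm pool.

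By the rule of their choice all 10 members were called in the authors' deposited table, where 0.708% of 10163 tested embryo genes were called higher. The adjusted p was 0.00959, the smallest in that table, for 8 members, 0.0169 for CG18294 and 0.0412 for CG13068, in the authors' deposited table. CG13068 lay just inside the threshold of 0.05, and the tested gene of the same stretch just outside it was CG13046 at 0.103. The median log2 ratio of high over medium sugar, with 0.1 FPKM added to both values, was 4.53 over the 10 members and -0.03 over the 12325 genes of the table averaging at least 0.1 FPKM. For members listed at 0 this ratio follows from the amount added: the median was 7.79 with 0.01 FPKM added and 1.91 with 1 FPKM added.

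All members are short genes. In BDGP5 coordinates the first cluster runs from 16257813 to 16313554 on 3L, a span of 55.7 kb, and the second from 19464756 to 19468674, a span of 3.92 kb, with 3151 kb between them. The member loci are 380 to 832 bases long, against a median of 3218 bases over all genes of the table, and none shares its locus with another gene. In the newer BDGP6 annotation, used here for lengths, exons, strands and gene class but not for positions, their proteins have 79 to 141 residues, with a median of 126, against 387 over 13005 annotated protein-coding genes. The coding sequence of 9 members is split into 2 exons, of which the first holds exactly 12 coding bases, or 4 codons, followed by an intron of 55 to 73 bases. CG13051 is the exception, a gene of 1 exon that encodes 83 residues. Among all annotated genes 113, or 0.869%, have 2 coding exons with 12 coding bases in the first. The exon layout had no part in the choice of the members, which were picked as clusters of small genes. Both strands are used, with 6 members on the plus and 4 on the minus strand. Sequences of the members were not used here, so similarity between copies was not analysed. Where neighbouring genes such as _825-Oak_, CG12519 and CG18294 are similar enough to share reads, their separate values are uncertain.

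**Figure D2:**
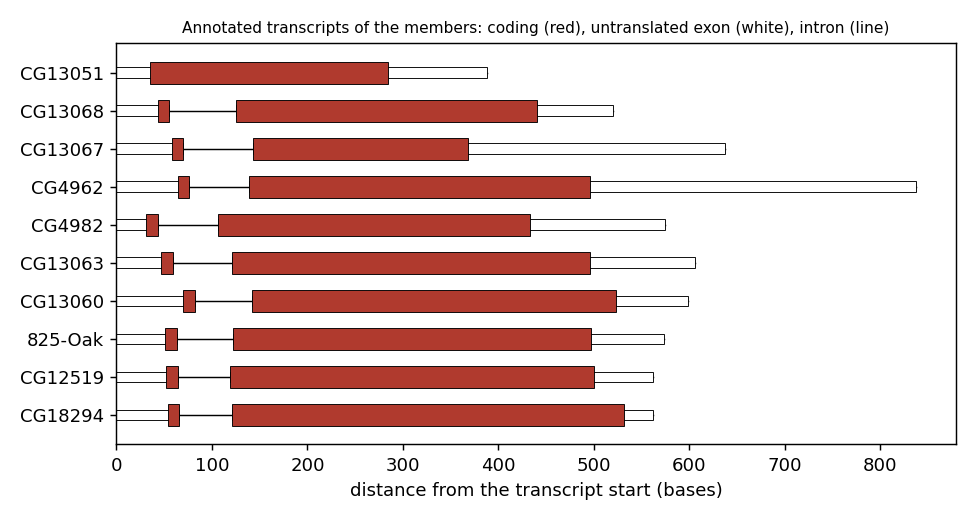
Annotated transcripts of the 10 members from the transcript start in bases, with coding sequence in red, untranslated exon sequence in white and introns as lines. All members but CG13051 show a first coding piece of 12 bases, an intron of 55 to 73 bases and the rest of the coding sequence in the second exon.

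The genes between and around the members were mostly higher in high sugar embryos as well, although none of them was called. Within the clusters and 20 kb on each side the tables hold 47 other genes, 22 of them listed at 0 in medium sugar embryos and 11 of those listed at 0 in both embryo groups. The 29 genes averaging at least 0.1 FPKM comprised 26 with a higher and 3 with a lower high sugar value, with a median log2 ratio of 2.02, against 44.5% of all genes at that level with a higher high sugar value. That 0 of the 16 tested neighbours were called follows from the choice of members, which took every called gene of the stretch. Of these 16, 7 had an unadjusted p under 0.05 in the authors' deposited table with a higher high sugar value, against 2.55% of all tested genes. All 7 lie in the first stretch, where 12 neighbours were tested and all 12 had higher high sugar values. The neighbours of the 2 clusters had median log2 ratios of 1.93 and 2.52.

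Of the 12 tested neighbours in the first stretch, 7 lie outside its middle run of genes and its edge gene CG4998. CG13069, a gene of 1 exon like the adjoining CG13051, had 0.345 and 14.3 FPKM in medium and high sugar embryos. CG13043, next to CG13063, had 0.768 and 7.61 FPKM. CG13041, next to CG13060, had 1.57 and 14.4 FPKM. On the far side of CG13060, CG13059 had 1.02 and 10.3 FPKM, CG13038 3.50 and 12.8 FPKM and CG13058 0.205 and 2.04 FPKM. CG13044 had 0.298 and 1.97 FPKM. These 7 genes thus differed by ratios of 3.66 to 41.3, and 5 of them, at 7.61 to 14.4 FPKM, exceeded all members but CG13063 in high sugar embryos. Other genes adjoining members were low, such as CG4950 at 0.128 FPKM and CG13066 at 0.306 FPKM in high sugar embryos, both named after their values were seen.

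A run of genes in the middle of the first stretch was present in both embryo groups. CG13049 had 9.06 and 16.7 FPKM, CG13048 7.26 and 15.6 FPKM, CG13047 1.67 and 4.03 FPKM and CG13046 2.08 and 9.89 FPKM, which are ratios of 1.84 to 4.75. CG13064, not tested by the authors, had 1.35 and 2.08 FPKM. The sole gene of the first stretch averaging at least 0.1 FPKM with a lower high sugar value was CG13045, at 0.413 and 0.170 FPKM. At the edge of the stretch CG4998, a larger gene that encodes 891 residues, had 36.6 and 52.0 FPKM. Other genes of the stretch were hardly detected: retinin and Nplp3, a gene for a neuropeptide-like precursor, which were named after their values were seen, had 0.115 FPKM each in high sugar embryos and were listed at 0 in medium sugar embryos.

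The second cluster lies in a compact run of 7 genes with the 12-base first coding exon, from CG14095 to CG32213, within 12.3 kb. All 7 had higher values in high sugar embryos, from 1.34 to 11.2 FPKM, while none exceeded 0.234 FPKM in medium sugar embryos. For the 3 members among them the direction follows from their choice, and none of the other genes of the run was called. CG14095 had 0.0995 and 11.2 FPKM, a larger difference than that of any member of this cluster. CG32214 had 0.150 and 3.26 FPKM and CG32213 0.234 and 3.05 FPKM, high sugar levels close to the 2.15 to 3.31 FPKM of _825-Oak_, CG12519 and CG18294. CG14096, not tested by the authors, had 0.152 and 1.34 FPKM. Beyond the run CG32212 had 0.497 and 0.259 FPKM and CG9449 13.6 and 11.0 FPKM, both lower in high sugar embryos.

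**Figure D3:**
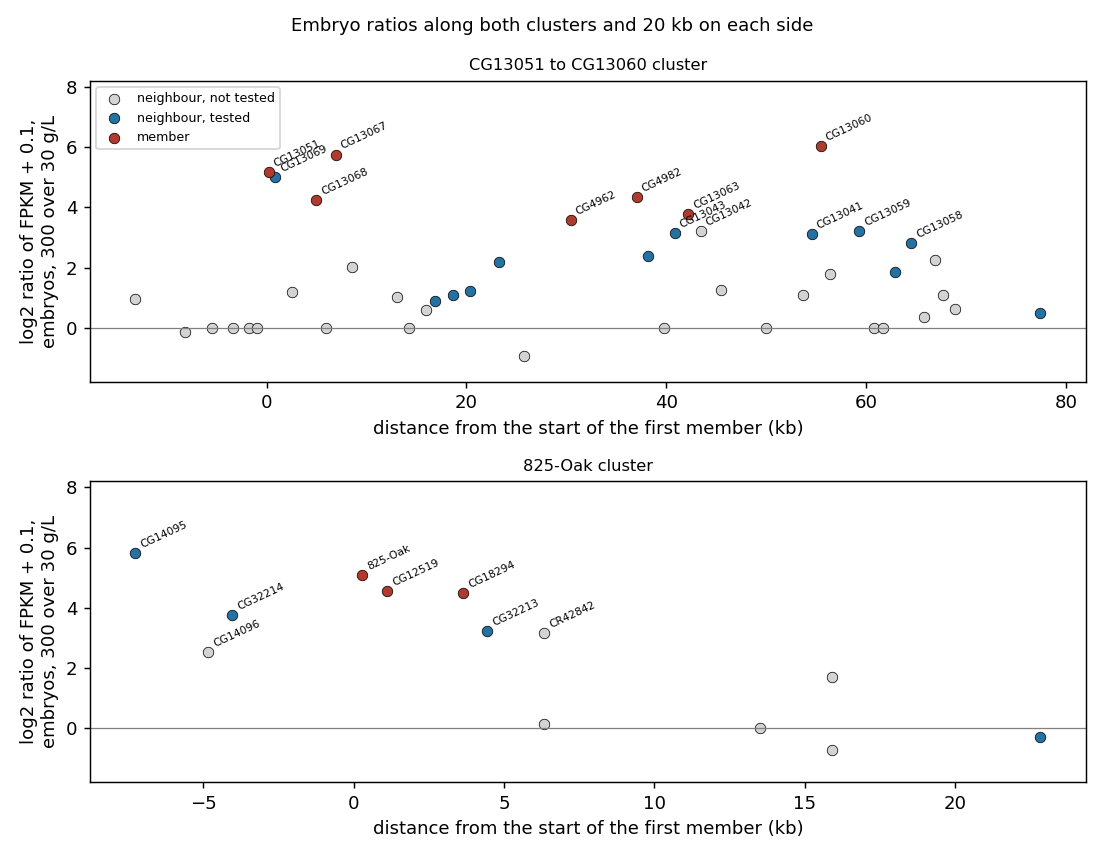
Log2 ratio of high over medium sugar FPKM plus 0.1 in embryos for each gene of both stretches, against the distance in kb from the start of the first member, with members in red, tested neighbours in blue and neighbours not tested by the authors in grey. Log2 ratios above 2.5 occur for all members and for several neighbours, such as CG13069, CG13041 and CG14095, and genes listed at 0 in both groups lie on the zero line.

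Beyond the chosen margin of 20 kb the differences were smaller. Between 20 and 50 kb from the clusters there are 32 further genes, of which 20 reached a mean of 0.1 FPKM. Of these, 14 had higher and 6 lower high sugar values, against 44.5% of all genes at that level with a higher one. The median log2 ratio of the 20 genes was 0.08. None of the 13 tested genes had an unadjusted p under 0.05 in the authors' deposited table. This region holds the cuticle protein genes Cpr72Ea, Cpr72Eb, Cpr72Ec, Cpr76Ba, Cpr76Bb and Cpr76Bc, named after their values were seen. Cpr76Bc had 1.23 and 1.74 FPKM, and the other 5 were listed at 0 in medium sugar embryos and at no more than 0.0546 FPKM in high sugar embryos. These 5 were too low to show a difference.

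Among tested genes of both stretches, the 9 members other than CG13063 were listed at 0 in medium sugar embryos, and the 16 neighbours and CG13063 were above 0. Among tested embryo genes at 1 FPKM or more in the high sugar group, 17 of 35 listed at 0 in the medium sugar group were called in the authors' deposited table, and these 17 include the 9 members, chosen for being called. Of 32 such genes with a medium sugar value above 0 and up to 0.25 FPKM, 0 were called, with 3 at an unadjusted p under 0.05 in the authors' deposited table. The counts were 1 of 43 for values up to 0.5 FPKM and 4 of 177 for values up to 1 FPKM. CG14095 with a ratio of 112 had an unadjusted p of 0.247, CG13069 with a ratio of 41.3 one of 0.164, CG32214 with a ratio of 21.7 one of 0.247 and CG32213 with a ratio of 13.0 one of 0.233, all in the authors' deposited table. CG12519, at 0 and 2.26 FPKM, had an unadjusted p of 5e-05 there, the smallest of the table, which genes outside the clusters share. In all, 9 tested neighbours had at least 5-fold higher values, 7 of them above the median member in the high sugar group, with unadjusted p-values of 0.0042 to 0.247 and adjusted p-values of at least 0.314 in the authors' deposited table. With 0.1 FPKM added to both values, the log2 ratios of the members ranged from 3.58 to 6.04. The uncalled neighbours CG14095, CG13069 and CG32214 lay within that range, at 5.82, 5.01 and 3.75. The other tested neighbours lay below it. Since these values chose the members, this is a description only.

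**Figure D4:**
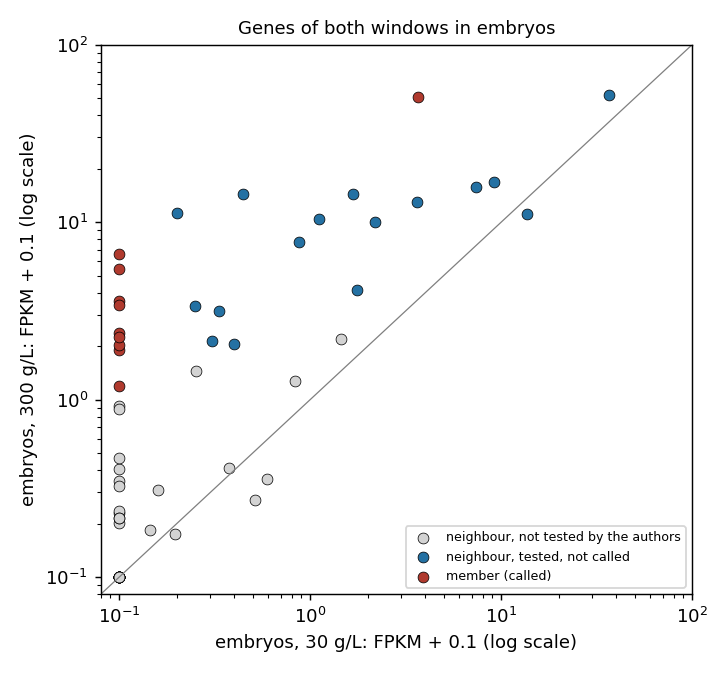
FPKM plus 0.1 in medium sugar (x) and high sugar (y) embryos, on log axes, for all genes of both stretches, with the diagonal marking equal values. Members (red), apart from CG13063, line up at the listed 0 on the left, beside tested neighbours (blue) with medium sugar values above 0, whose high sugar values lie both above and below those of the members.

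**Figure D5:**
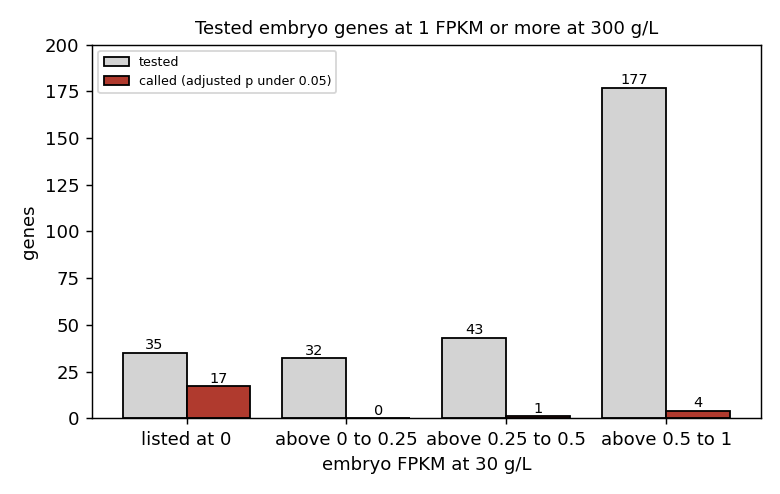
Number of tested embryo genes at 1 FPKM or more in the high sugar group (grey bars) and of those called in the authors' deposited table (red bars), by the medium sugar FPKM. Calls number 17 of 35 at a listed 0 and 0 of 32 just above it. The 17 include 9 members, which were chosen for being called.

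A listed 0 on the medium sugar side was more common than its reverse. In embryos 64 genes combined a medium sugar value listed at 0 with at least 1 FPKM at high sugar, and 34 genes showed the reverse. Among annotated protein-coding genes the counts were 32 and 8, and the members make up 9 of the 32. Without a known depth, a listed 0 gives no upper limit for the level of these RNAs, and some may be failed estimates. Of 88 ribosomal protein genes by symbol 3 were listed at 0 in medium sugar embryos, 2 of them in both embryo groups. Whether those zeros are failed estimates or absent RNA was not tested.

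Cuticle protein genes moved in the same direction as the members in embryos. On a list of 136 cuticle protein genes the authors' deposited table called 20 rises and 0 falls among 76 tested, which is 26.3% higher against 0.708% of all tested genes, with a median log2 ratio of 1.09 over the 106 genes averaging at least 0.1 FPKM. The larval cuticle protein genes Lcp65Ag1, Lcp65Ag2 and Lcp65Ag3 rose, with 1.89, 5.80 and 6.52 FPKM in medium sugar embryos and 64.2, 138 and 107 FPKM in high sugar embryos, the latter above the level of any member, and as close paralogs they may split reads among them. Ccp84Aa, also called, was listed at 0 and at 1.41 FPKM, the pattern of most members. The summed level of the list was 2258 and 4594 FPKM, that of the 10 members 3.58 and 78.4 FPKM. Genes for chitin synthesis and assembly had 0 calls among 16 tested and a median of 0.16, with 13 higher and 4 lower in high sugar embryos. In that list verm, a chitin deacetylase, had 246 and 260.1 FPKM and Cht7, a chitinase, 133 and 137 FPKM.

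Of the other marker lists, the maternal one held calls in embryos. On a list of 18 maternal RNAs the authors' deposited table called 0 rises and 4 falls among 14 tested, where 0.0984% of all tested genes were called lower, with a median of -0.34, a summed level of 173 and 133 FPKM and no gene listed at 0 in both groups. Those 4 were the cyclin gene CycB, at 28.1 and 8.97 FPKM in medium and high sugar embryos, smg, a translational repressor, at 19.4 and 8.41 FPKM, osk, a gene of the germ plasm, at 3.39 and 0.946 FPKM, and wisp, a poly(A) polymerase, at 1.69 and 0.487 FPKM. Of the 18 genes 13 had a lower high sugar value. Its most abundant members were gcl, at 58.6 and 68.4 FPKM, and CycA, at 32.1 and 24.5 FPKM, neither called. Muscle genes had 0 calls among 10 tested and a median of 0.15, with 10 higher and 0 lower in high sugar embryos. Act57B had 1416 and 1550 FPKM and Mlc2 1059 and 1205 FPKM. Neuron genes had 0 calls among 7 tested and a median of 0.01, with elav at 44.5 and 40.8 FPKM and Syx1A at 32.2 and 33.2 FPKM. Eye genes were low, with a summed level of 8.09 and 8.48 FPKM over 12 genes, most of it from norpA at 5.27 and 5.02 FPKM and Arr1 at 1.07 and 1.51 FPKM, and Rh2 and Rh3 listed at 0 in both groups. In the chitin, muscle, neuron and eye lists 0 tested genes with a higher high sugar value had an unadjusted p under 0.05 in the authors' deposited table. The part of the cuticle and maternal differences, which accompany the embryo groups, in the values of the members was not tested.

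The layout with 12 coding bases in the first of 2 coding exons, a class chosen after the structures of the members were seen, is shared by 104 other genes, with a median log2 ratio of 0.82 over the 86 averaging at least 0.1 FPKM. Of these, 21 are among the neighbours of the clusters and 38 on the cuticle list. Of the 26 tested cuticle genes with this layout 6, or 23.1%, were called higher in the authors' deposited table. The shares were 26.3% of tested genes on the whole cuticle list and 0.708% of all tested genes. The median log2 ratio was 1.11 over 33 cuticle genes with the layout, close to 1.09 over the whole list. Among the neighbours with it, 14 of the 15 averaging at least 0.1 FPKM had higher high sugar values. Among the neighbours without it the count was similar, 12 of 14. The remaining 45 genes with the layout comprised 38 at that mean, of which 21 had higher and 17 lower high sugar values, with a median log2 ratio of 0.12 and 0 rises and 1 fall called among 27 tested. The fall was that of Cp15, a gene of the eggshell chorion, at 1.82 FPKM in medium sugar embryos and listed at 0 in high sugar embryos, and 2 further genes had an unadjusted p under 0.05 with a higher high sugar value in the authors' deposited table.

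The profile of each gene over the 4 pools was compared with the mean profile of the members. By the distance of log2(FPKM + 0.1) from the mean profile of the members, the 5 nearest other genes of the tables were CG13731, Ccp84Ae, CG10953, CG42656 and CG32214, at distances of 0.574 to 0.992. All 5 were listed at 0 in both sperm pools. Like their embryo pattern, this largely follows from the measure, which ranks genes by the members' own values, including those that chose them. CG13731 had 0.0341 and 3.58 FPKM in medium and high sugar embryos, and Ccp84Ae, a cuticle protein gene on 3R, had 0.0927 and 3.70 FPKM. CG10953 was listed at 0 and at 3.42 FPKM, and CG42656 at 0 and at 2.94 FPKM. CG10953 was called and the other 4 were not. The members themselves lay at distances of 0.770 for CG13051 to 6.03 for CG13063, so the measure ranks CG13063 and CG13067, at 5.14, as unlike the rest. CG13731 at 0.574 and Ccp84Ae at 0.708 thus lay nearer to the mean profile than any member.

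In sperm the members were hardly detected. This contrast had no part in their choice. The authors tested 0 of the 10 members in sperm, so none could be called, where 0.325% of 6453 tested sperm genes were called higher. All members but CG13067 were listed at 0 in both sperm pools, as were 23.7% of all genes of the table. CG13067 was listed at 0 in medium sugar sperm and at 4.92 FPKM in high sugar sperm, beside 5.31 FPKM in high sugar embryos. All 16 spermatid genes listed were also higher in high sugar sperm, with a median log2 ratio of 1.26, a summed level of 782 and 1792 FPKM and 3 of 15 tested genes called in the authors' deposited table, S-Lap1, S-Lap7 and loopin-1. The accessory gland list summed to 361 and 1003 FPKM in sperm, with 1 of 9 tested genes, Dup99B, called higher in the authors' deposited table. The part of these differences in the value of CG13067 was not tested. Of the 47 neighbours 38 were listed at 0 in both sperm pools and 2 were tested. CG43249, which lies between CG4982 and CG13063, had 2.57 and 19.2 FPKM in medium and high sugar sperm and was listed at 0 in both embryo groups, with p = 0.236, unadjusted, by the authors' deposited table. CG9449 had 1.17 and 5.11 FPKM in sperm with p = 0.0988, unadjusted, by the authors' deposited table. Among markers of the labelled cells Mst87F, a spermatid gene, had 106 and 264 FPKM there against 2.22 and 0.927 FPKM in embryos. The muscle gene Act57B was at 926 and 943 FPKM in the sperm pools. The muscle list summed to 3391 and 3262 FPKM there, above the sums of the spermatid list. Values of the sperm pools may therefore not be of sperm alone, which was not tested.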

How the data were processed

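RNA of 8 libraries in 4 groups of 2 was analysed, from stranded libraries of Trizol-extracted RNA per the labels' protocols. The submitters' processing notes name Cuffdiff 2.1.1, TopHat2 2.0.8 and the build BDGP5, while options, annotation and scaling were not given in the sources used here. Per the file headers the deposited columns hold FPKM, as 1 value for each group, and the authors' p-value for each gene, raw and after Benjamini-Hochberg adjustment, and a gene was called at an adjusted p under 0.05. Nothing was refitted, since the tables hold no value per library. The name of each table gives its tissue.

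Members, lists and tests were chosen with earlier results of these data known. Ratios were computed from FPKM with Python 3.11.15, pandas 2.3.3 and numpy 2.4.6, plain only where both values exceed 0, otherwise as log2 of FPKM plus 0.1. Medians use genes averaging at least 0.1 FPKM. The ratio formula was checked on embryo values changed by a known factor, and the adjustment on a short set of p-values with a known answer. Adjusting the deposited p-values over the tested genes returned the deposited adjusted p in embryos but differed by up to 0.165 in sperm. Neighbours overlap a cluster widened by 20 kb on each side. Named were all members, neighbours called or at a mean of 1 FPKM, 4 called cuticle genes of the smallest adjusted p, the 2 most abundant genes of other lists and the 5 nearest profiles; others were chosen after their values were seen. Lengths and exons are those of the first transcript by identifier in BDGP6. Of the columns with values per sample, 0 were left unused. Alternatives were other thresholds, pseudocounts, minimum means, margins, a minimum fold, centring and adjustment over other sets of genes.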

Additional observations from a re-analysis of the deposited data

How the results depend on the processing

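No paired analysis was possible because the tables hold 1 value per group, for which reason no replicate could be left out either. The planned search for relatives by protein sequence was not run, since no protein sequences were used here. The call count of 10 members was 8 at an adjusted p under 0.01. It was 7 when the adjustment ran over genes averaging at least 1 FPKM, a mean that only 7 members reach, so all of those stayed called. Restricted to members above 0 FPKM in both groups, an alternative chosen after seeing the data, it was 1, that of CG13063. The median log2 ratio of the members in embryos, 4.53, was 7.79 and 1.91 with 0.01 and 1 FPKM added and 5.09 at a minimum mean of 1 FPKM. It was 3.78 both at a minimum mean of 5 FPKM and for members above 0 in both groups, each of which leaves CG13063 alone. In sperm a single member, CG13067, passed the minimum, so that the value of 5.65 (8.94 and 2.57 with 0.01 and 1 FPKM added) is its own; without a minimum the median was 0. The median of the neighbours in embryos, 2.02, was 3.06 and 0.87 with 0.01 and 1 FPKM added, 1.09 without a minimum, 2.38 at a minimum of 1 FPKM and 0.66 with a margin of 50 kb. In sperm it was 3.17 over 8 genes, 4.79 and 1.52 with 0.01 and 1 FPKM added, 0 without a minimum, 3.67 and 2.85 at minima of 1 and 5 FPKM, 4.33 without a margin and 1.59 with 50 kb. The median of the cuticle list, 1.09, was 0.69 with 1 FPKM added, 0.70 without a minimum and 1.43 at a minimum of 5 FPKM. Genes listed at 0 in medium sugar embryos numbered 89 at 0.5 FPKM or more and 39 at 2 FPKM or more in high sugar embryos, and in the reverse direction 59 and 28. With a first coding exon of 9 to 18 bases, the layout class had 13 calls in place of 7 and a median of 0.44 in place of 0.82. The medians of members, neighbours and cuticle list changed sign under none of their alternatives, and centring moved none of them by 0.1 or more; the layout class had a single alternative. The unknown depth limits what the listed zeros can show.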

Other observations

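The summed level of 16 spermatid genes was 3.30 FPKM in medium and 2.07 FPKM in high sugar embryos, with 6 genes listed at 0 in both groups. The spermatid gene betaTub85D had 0.463 and 0.600 FPKM in embryos and 25.8 and 39.2 FPKM in sperm. Of the accessory gland list, which sums to 22.3 and 18.5 FPKM in embryos, Acp36DE had 13.3 and 12.1 FPKM and Acp62F 5.18 and 2.73 FPKM, against 5.75 and 11.4 FPKM for Acp36DE and 7.74 and 12.6 FPKM for Acp62F in sperm. Both have long listed loci, 18320101 to 18393441 on 2L for Acp36DE and 2719415 to 2766480 on 3L for Acp62F. The median over all genes is 3218 bases. Whether reads of other genes in these loci enter the values was not tested. Over all tested embryo genes with both values above 0, at least 1 FPKM in the high sugar group and a ratio of at least 10, 13 of 48 were called in the authors' deposited table, and 1 of the 29 with a medium sugar value under 0.5 FPKM.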
